A study of Mus musculus with 8 samples.

Results

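The regions described here are the new H4K20me3 peaks of KAP1 knockout cells: peaks called for trimethylated lysine 20 of histone H4 in the knockout list that share no base with any H4K20me3 peak of the wild-type list. On chromosomes 1 to 19 there were 1384 of them among 8673 knockout H4K20me3 peaks (16.0%), out of 38359 peaks in the 5 lists of the series. The other 7289 knockout peaks shared at least 1 bp with a wild-type peak. The members were chosen by the deposited H4K20me3 peak positions of both genotypes, so their number, scores and lengths are given as a description.

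The cells were MEF, that is fibroblasts grown from mouse embryos, either wild type (WT) or labelled as KAP1 KO. ChIP-seq, in which an antibody pulls down chromatin whose DNA is then sequenced, was done for H3K9me3 and H4K20me3 in both genotypes and for KAP1 in WT cells, and 3 input libraries were made without antibody. Each group had 1 library, so no difference between genotypes has a replicate check, and a difference between the genotypes cannot be told apart from one between the cultures or libraries. The labels give no strain, embryo stage or method of deletion, and KAP1 was not profiled in KO cells, so these data hold no check of the knockout.

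KAP1 (TRIM28) silences DNA to which KRAB zinc finger proteins bring it. It recruits SETDB1, a methyltransferase that writes H3K9me3, and HP1 proteins bind that mark. H4K20me3 is written by KMT5B and KMT5C, which HP1 can bring to H3K9me3, and both marks are known from pericentromeric heterochromatin, repeats and zinc finger gene clusters. The question here was what H4K20me3 peaks called in KO alone look like, where they lie and whether they meet H3K9me3 or KAP1 peaks.

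A peak carries a position on build mm9 and the score the authors' peak caller gave it. A score is used here within 1 list only. The lowest score was 50 in the WT and KO H4K20me3 lists alike, after rounding. The lists held 11104 WT and 8673 KO H4K20me3 peaks, 14185 WT and 2862 KO H3K9me3 peaks, and 361 KAP1 peaks on chromosomes 1 to 19. Read counts are not part of the lists, and the depth is unknown. A new peak means that no WT peak was called at that place, not that the mark was absent there in WT cells. An annotation or genome of mm9 was not used here, so the regions are given by position without gene names or sequences.

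Of the 4 new peaks with a score of at least 1000, 3 formed a compact group on chromosome 6. From 47070824 to 47111151 the KO list had 3 H4K20me3 peaks and every other list had none. They lay at 47070824 to 47072807 (1984 bp, score 1057), 47089299 to 47092135 (2837 bp, score 3100) and 47108212 to 47111151 (2940 bp, score 3100). The gaps between neighbours were 16491 and 16076 bp, so the peaks were nearly evenly spaced. A score of 3100 was shared by 4 KO peaks, 2 of them new, and only 1 KO peak had a higher score. The same value was the highest score of the WT H3K9me3 and KAP1 lists, so it may be a limit of the caller. Peaks at 3100 are therefore not ranked among themselves. The nearest WT H4K20me3 peak began at 47403532, 292 kb beyond the last of the group, and was also present in KO. Its scores, 984 in the WT list and 1694 in the KO list, belong to different lists and are not compared. Neither H3K9me3 nor KAP1 peaks came close: the nearest WT H3K9me3 peak was 437 kb from the first of the group, the nearest KAP1 peak 744 kb from the last, and the nearest KO H3K9me3 peak 1946 kb from the first.

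**Figure D1:**
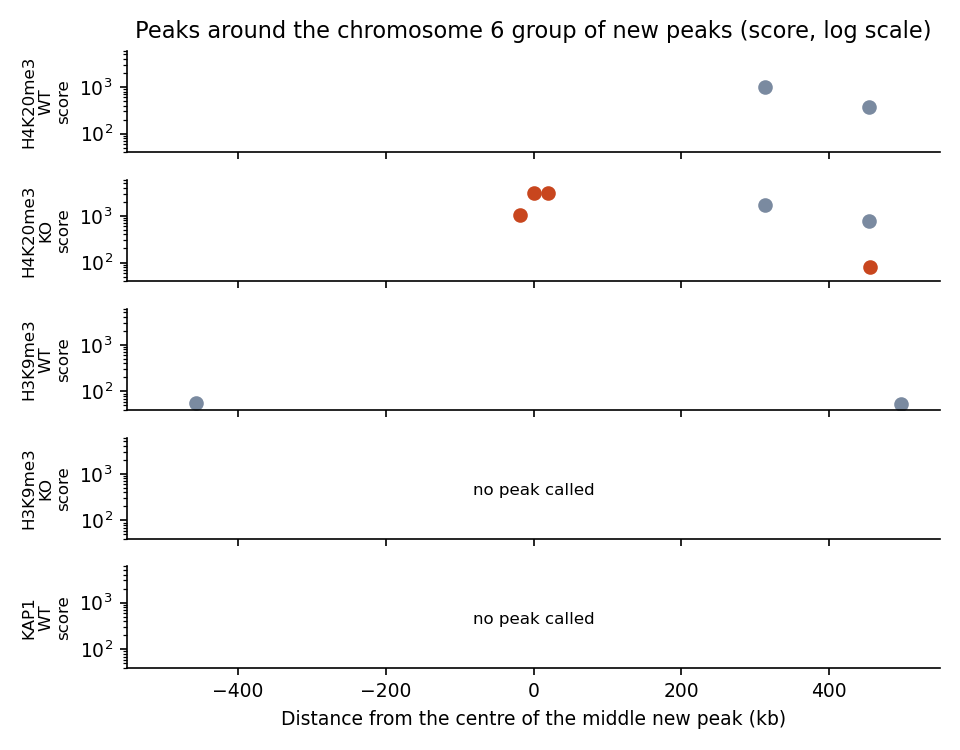
Peaks of each list within about 550 kb of the middle new peak on chromosome 6. Each point is 1 peak, placed by the distance of its centre in kb and by its deposited score on a log scale, with new KO H4K20me3 peaks in red and all others in grey. The 3 new peaks of the group, with scores of 1057 to 3100, stand apart, while 2 peaks to their right were called in both genotypes. A further new peak, with a score of 81.9, lies beside the farther of those 2.

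The other 7 of the 10 highest-scoring new peaks lay from 34.3 to 1744 kb from any WT H4K20me3 peak. Chromosome 13 held 2 of them, at 50907205 to 50909996 (2792 bp, score 1261) and at 50068855 to 50071300 (2446 bp, score 847). These were 286 and 291 kb from the nearest WT H4K20me3 peak, and 53.2 and 66.7 kb from the nearest WT H3K9me3 peak. On chromosome 6 a further peak at 58476223 to 58478227 scored 562, and its only neighbour within 5 kb was a second new peak of 278 bp with a score of 63.6. The peak on chromosome 5 at 93522396 to 93523797, with a score of 562, likewise had a new peak of 461 bp beside it. Chromosome 18 held peaks at 52687768 to 52689307 (score 540) and 16965911 to 16968331 (score 476), the latter 1744 kb from any WT H4K20me3 peak. The tenth in rank, on chromosome 6 at 39507105 to 39508203, scored 458 and lay 34.3 kb from a WT peak. None of these 10 touched an H3K9me3 or KAP1 peak.

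All 8 new peaks with a score of at least 500 lay more than 100 kb from a WT H4K20me3 peak, at distances from 111 to 647 kb. Of the 90 with a score of at least 200, 44 did so, and 5 lay within 1 kb of a WT peak. Of those 90, 30 were on chromosome 18 and 14 on chromosome 6, while 2 touched a KO H3K9me3 peak and 1 a WT H3K9me3 peak.

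Such peaks were exceptions, and most new peaks were weak. The median score of the 1384 was 79.5, with quartiles of 60.2 and 118, beside a median of 242 and quartiles of 136 and 410 for the other KO peaks. Of the new peaks, 472 (34.1%) scored at least 100 and 32 at least 300. Of the other KO peaks, 85.8% scored at least 100. Among the 500 KO peaks of highest score, 5 were new. From the lowest to the highest decile of KO score, the share of peaks that were new fell from 57.8% (503 of 870) to 0.576% (5 of 868).

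**Figure D2:**
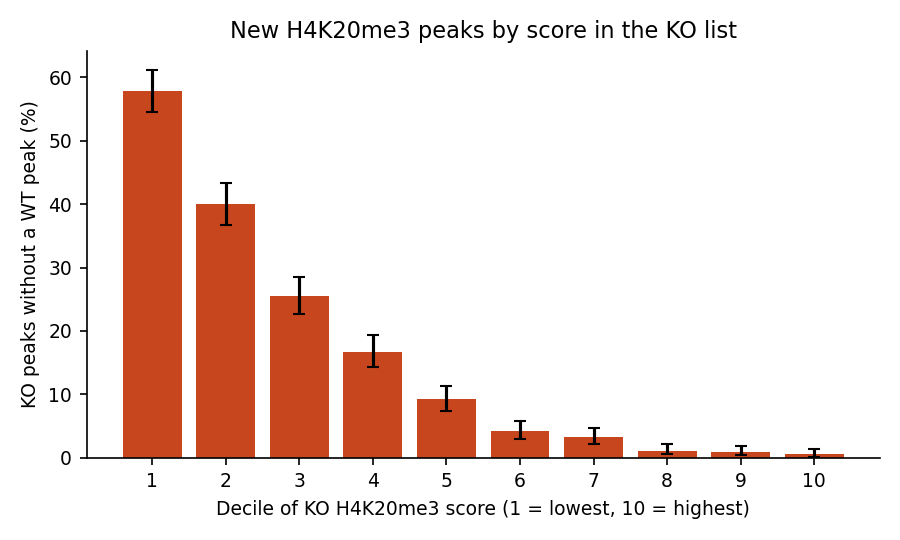
Share of KO H4K20me3 peaks without a WT peak in each decile of KO score on chromosomes 1 to 19. Bars give the percent and error bars the exact 95% binomial interval, which covers counting error over peaks only. The share was 57.8% in the lowest decile and 0.576% in the highest.

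New peaks were short, as low-scoring peaks are in this list. Their median length was 537 bp (quartiles 437 and 689), beside 848 bp for the other KO peaks. They covered 0.880 Mb, or 11.4% of the length under KO peaks. At like score the lengths were nearly equal: in the lowest decile of score the median was 417 bp for new and for other KO peaks, and in the second decile 516 and 523 bp. In higher deciles the new peaks were the longer ones, with 1031 beside 914 bp in the seventh decile (29 new peaks) and 2792 beside 1504 bp in the tenth (5 new peaks). The tenth decile runs from 606 to 3173, so scores are not alike within it. Of its 5 new peaks 4 scored at least 1000, beside 220 of its other peaks. The WT peaks without a KO peak, the reverse class, numbered 3825 of 11104 (34.4%) and had a median length of 602 bp.

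Of the 5 longest new peaks, 4 scored under 100. Chromosome 8 held 4 of the 5 longest. The longest ran from 19721280 to 19727278 (5999 bp) with a score of 55.2, close to the lowest of the list. Nearby were peaks at 19681250 to 19685512 (4263 bp, score 63.7), 19998386 to 20001864 (3479 bp, score 173) and 20002822 to 20007580 (4759 bp, score 88.1). The remaining one, on chromosome 16 at 3231562 to 3235424 (3863 bp, score 79.9), lay almost wholly on a KO H3K9me3 peak, with 3855 bp in common.

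The median distance from a new peak to the nearest WT H4K20me3 peak was 30.0 kb. Of the 1384 new peaks, 262 (18.9%) had a WT peak within 1 kb, 436 (31.5%) within 10 kb and 1049 (75.8%) within 100 kb. The 262 near ones lay mostly beside WT peaks that were still called in KO: 231 had such a WT peak within 1 kb, and 228 had a shared KO peak within 1 kb. A WT peak that was not called in KO lay within 1 kb of 37 of them, 6 of which had both kinds. Most WT peaks were of the first kind in any case: 7279 of all 11104 were still called in KO, and 3825 (34.4%) were not. Among all 1384 new peaks, 1087 (78.5%) had no other KO H4K20me3 peak within 1 kb, and 63 had only another new peak there. Scores were slightly higher away from WT peaks, with a median of 71.4 for the 262 near peaks and 84.6 for the 335 peaks more than 100 kb away.

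The rule separates peaks that differ by a few bases. Members just inside it were a peak on chromosome 5 at 115608303 to 115608954 (score 157) and one on chromosome 13 at 58229986 to 58230798 (score 148), both touching a WT peak without a shared base, and one on chromosome 8 at 11007242 to 11007925 (score 176), 1 bp away. Just outside it were peaks with 4, 8 and 8 bp in a WT peak, on chromosome 13 at 111184706 to 111185125 (score 78.4), chromosome 11 at 54335534 to 54336277 (score 169) and chromosome 19 at 8815793 to 8816232 (score 68.3).

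H3K9me3 was called at few new peaks, but at a larger share of them than of the other KO H4K20me3 peaks. A KO H3K9me3 peak overlapped 45 of the 1384 (3.25%, exact 95% interval 2.38 to 4.33%), beside 36 of 7289 other KO peaks (0.494%, 0.346 to 0.683%) and 0.934% of all KO peaks. A WT H3K9me3 peak overlapped 50 of the new peaks (3.61%, 2.69 to 4.74%), beside 87 of the others (1.19%, 0.957 to 1.47%) and 1.58% of all KO peaks. These intervals cover counting error over peaks only, and neighbouring peaks are not independent. Where KO H3K9me3 met a new peak it covered a median of 99.9% of its length, and it covered 22 of the 45 wholly. The share on KO H3K9me3 was 1.15% for the 262 new peaks within 1 kb of a WT H4K20me3 peak and 7.76% for the 335 more than 100 kb away, 26 peaks in all.

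Because new peaks score low, the shares were also set side by side within ranges of score. Among KO H4K20me3 peaks with a score under 100, WT H3K9me3 was found at 38 of 912 new peaks (4.17%) and at 41 of 1037 others (3.95%), with intervals of 2.97 to 5.67% and 2.85 to 5.33%. KO H3K9me3 was found at 33 of those 912 new peaks (3.62%, 2.50 to 5.04%) and 12 of the 1037 others (1.16%, 0.599 to 2.01%). With a score of at least 100, both H3K9me3 lists touched 12 of 472 new peaks (2.54%, 1.32 to 4.40%), while among 6252 others WT H3K9me3 touched 46 (0.736%) and KO H3K9me3 24 (0.384%). This upper range does not match the scores. Of its new peaks 90 scored at least 200, and of its others 4284 did.

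New H4K20me3 peaks with H3K9me3 in KO but not in WT made up the class that was nearly empty among other KO peaks. There were 21 among the new peaks (1.52%, interval 0.942 to 2.31%) and 1 among the 7289 others (0.0137%). Peaks on H3K9me3 of both genotypes numbered 24 (1.73%) and 35 (0.480%), and those on WT H3K9me3 alone 26 (1.88%) and 52 (0.713%). The remaining 1313 new peaks (94.9%) touched no H3K9me3 peak. The 21 lay on 10 chromosomes, 6 of them on chromosome 10, and 13 were more than 100 kb from any WT H4K20me3 peak. From the nearest WT H3K9me3 peak 13 were more than 10 kb away and 3 less than 1 kb.

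**Figure D3:**
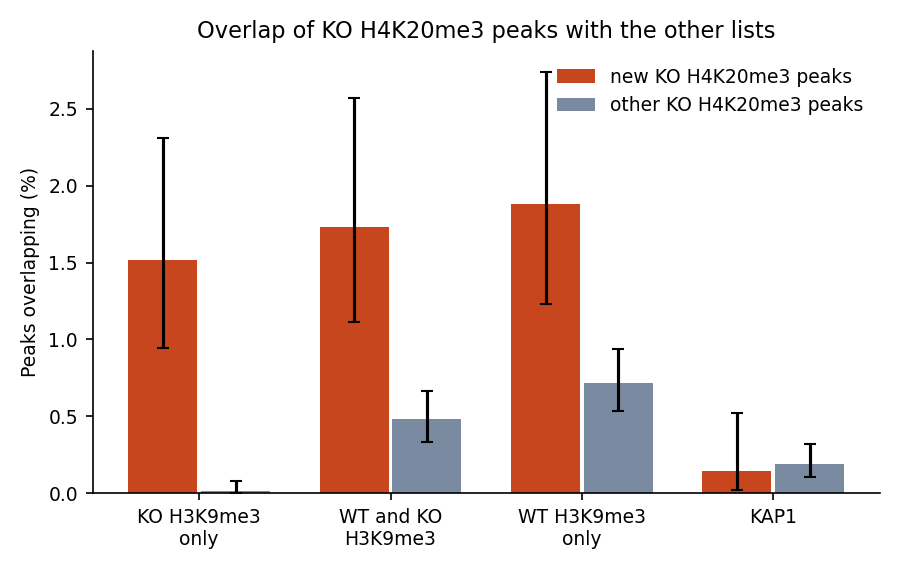
Percent of new (red) and other (grey) KO H4K20me3 peaks that overlapped H3K9me3 peaks of KO only, of both genotypes or of WT only, and KAP1 peaks. Error bars are exact 95% binomial intervals over peaks. In the class with H3K9me3 in KO only, 1.52% of new peaks stand beside 0.0137% of the others.

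The highest-scoring of these 21 was on chromosome 14 at 14582526 to 14583770 (1245 bp, H4K20me3 score 304), where 2 KO H3K9me3 peaks with scores of 56.4 and 189 met it over 493 bp. On chromosome 4, the H4K20me3 peak at 118219678 to 118221503 (score 158) lay inside a KO H3K9me3 peak from 118219582 to 118221548 with an H3K9me3 score of 1165, and the nearest WT peaks of H4K20me3 and H3K9me3 were 71.9 and 68.4 kb away. On chromosome 12, the peak at 114662508 to 114663666 (score 142) shared 1127 bp with a KO H3K9me3 peak of score 286. On chromosome 10, the peak at 121015708 to 121018937 (3230 bp, score 158) shared 2329 bp with a KO H3K9me3 peak of score 116. On chromosome 8, the peak at 57980532 to 57981469 (938 bp, score 129) lay wholly on KO H3K9me3. The nearest WT H3K9me3 peak was only 0.522 kb from it, and the nearest WT H4K20me3 peak 1048 kb. Next in score, on chromosome 11, the peak at 18231598 to 18232309 (712 bp, score 112) also lay wholly on KO H3K9me3. Its nearest WT peaks of H4K20me3 and H3K9me3 were 378 and 475 kb away.

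Seen from the H3K9me3 list, 2538 KO H3K9me3 peaks had no base in a WT H3K9me3 peak. New H4K20me3 peaks met 21 of these (0.827%, interval 0.513 to 1.26%), and other KO H4K20me3 peaks met 1. WT H4K20me3 peaks met 18 of the same 2538. Among the 20 of highest H3K9me3 score, all with scores of at least 271, 6 met a new H4K20me3 peak and 0 met another KO H4K20me3 peak. Of the 324 KO H3K9me3 peaks that did overlap WT H3K9me3, 25 met a new peak (7.72%) and 35 another KO peak (10.8%). The new peak of highest score on H3K9me3 of both genotypes was on chromosome 13 at 13845109 to 13846561 (score 257). It was 63 bp from a WT H4K20me3 peak. It lay over H3K9me3 peaks with a score of 594 in the WT list and 1055 in the KO list, which are not compared. The other highest-scoring new peaks on WT H3K9me3 lay on chromosome 3 at 96121200 to 96121905 (score 138), chromosome 4 at 145682103 to 145683327 (score 121) and 146735104 to 146736565 (score 119), and chromosome 1 at 153869127 to 153869950 (score 119). Only the last of these also had KO H3K9me3.

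Between 145 and 147 Mb of chromosome 4, where WT H3K9me3 peaks were dense, there were 15 new H4K20me3 peaks among 24 KO peaks. Of the 15, 14 lay on WT H3K9me3 and 1 on KO H3K9me3, with H4K20me3 scores from 50.9 to 147. The 14 were thus a large part of the 50 new peaks on WT H3K9me3. From 145 to 146 Mb alone 232 WT H3K9me3 peaks were called. The share of the other KO peaks there on WT H3K9me3 is not given here, so the overlap is not read as particular to new peaks. In the first 4 Mb of the chromosomes, which on mm9 lie next to the centromere, 23 new peaks were called, 8 of them on KO H3K9me3. Of the 69 other KO peaks there, 2 were.

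KAP1 peaks were called at few new peaks. They overlapped 2 of the 1384 (0.145%, interval 0.0175 to 0.521%), beside 14 of 7289 other KO peaks (0.192%, 0.105 to 0.322%) and 0.184% of all KO peaks. With only 2 new peaks on KAP1, the data cannot tell whether new and other KO peaks differ, and no test was made. The interval of the new peaks lies below the share among WT H4K20me3 peaks without a KO peak, 49 of 3825 (1.28%, 0.949 to 1.69%). It holds the share among WT H4K20me3 peaks still called in KO, 17 of 7279 (0.234%, 0.136 to 0.374%), so the WT peaks without a KO peak are the class that differs. The 2 were on chromosome 2 at 72849055 to 72849520 (score 64.3), which also touched WT H3K9me3 over 163 bp, and on chromosome 18 at 13131218 to 13131576 (score 59.9). Within 100 kb of a KAP1 peak lay 7.08% of the new and 6.20% of the other KO peaks.

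Taken by themselves, new peaks were mostly scattered. When new peaks at most 10 kb apart were joined, 1221 of the 1384 (88.2%) had no other new peak that near. There were 67 pairs, and 8 clusters held 3 or more new peaks, 29 in all (2.10%, interval 1.41 to 3.0%). A shared KO H4K20me3 peak lay within 10 kb of 376 of the 1384 (27.2%). Clusters of the other KO peaks were not counted here, so the scatter is not read as particular to new peaks. The chromosome 6 group is not among the 8, since its gaps exceed 10 kb. A gap of at most 50 kb gave 32 clusters with 115 members (8.31%).

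Of the 8 clusters, 4 lay on the distal part of chromosome 10 and consisted of long, low-scoring peaks. The one with most members had 5 peaks from 120810159 to 120833263, with lengths of 1038 to 2157 bp and scores of 50.9 to 88.1. Next came 4 peaks from 127026184 to 127042568 (1390 to 2785 bp, scores 53.6 to 149), 4 peaks from 126720641 to 126746715 (1147 to 1817 bp, scores 53.7 to 84.7) and 3 peaks from 117186591 to 117203564 (1060 to 2395 bp, scores 50.2 to 106). None of these 16 peaks touched H3K9me3. The cluster from 126720641 also held 3 WT H4K20me3 peaks and 1 KAP1 peak between its members, while the other 3 held no peak of another list.

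The cluster on chromosome 8 differed from these in its H3K9me3. Its 4 peaks, from 57974850 to 57988960, had scores of 80.2, 129, 67.1 and 106, and all 4 overlapped KO H3K9me3, 2 of them also WT H3K9me3. The stretch held 7 KO and 4 WT H3K9me3 peaks and no WT H4K20me3 peak, the nearest of which was more than 1 Mb from each member. On chromosome 15, 3 peaks of 559 to 761 bp lay between 102235333 and 102240168 with scores of 59.0 to 73.9 and with no peak of another list between them. On chromosome 3, 3 peaks between 96117714 and 96122789 had scores of 61.8 to 138, and 2 of them lay on the single WT H3K9me3 peak there. The last cluster, on chromosome 11 from 96681169 to 96691929, had 3 peaks with scores of 65.5 to 101 and 1 WT H4K20me3 peak among them.

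The chromosome 10 clusters were part of a longer stretch. Between 110 and 130 Mb, a segment chosen after the data had been seen, 65 of 166 KO H4K20me3 peaks were new (39.2%, interval 31.7 to 47%), beside 36 of 337 on the rest of the chromosome (10.7%, 7.59 to 14.5%). The 65 had a median length of 1173 bp and a median score of 71.3, while the 1319 new peaks elsewhere had medians of 530 bp and 79.8. Among new peaks with a score under 100, 21 of 48 in the segment were at least 1200 bp long (43.8%), and 10 of 864 elsewhere (1.16%).

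The KO lists of both marks also stood apart in length in this segment. Of the 280 KO H3K9me3 peaks on chromosome 10, 231 lay in it, with a median length of 1148 bp beside 431 bp elsewhere on chromosomes 1 to 19. The other KO H4K20me3 peaks there had a median length of 1444 bp and a median score of 534, beside 844 bp and 240 elsewhere. Over all KO H4K20me3 peaks, new ones included, the median length was 1331 bp in the segment and 793 bp elsewhere. Their median scores were close, at 196 and 202. In the WT lists the segment was close to the rest, with median H3K9me3 lengths of 468 and 458 bp, H4K20me3 lengths of 851 and 767 bp and H4K20me3 scores of 196 and 164. Within 100 kb of a KO H3K9me3 peak lay 29 of the 65 new peaks (44.6%) and 131 of the 1319 elsewhere (9.93%), but only 5 of the 65 overlapped one. KO H3K9me3 peaks were dense in the segment, which held 8.07% of them and 1.91% of all KO H4K20me3 peaks. The share for the other KO H4K20me3 peaks there is not given here, so this nearness is not read as particular to new peaks. The inputs were not analysed here.

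**Figure D4:**
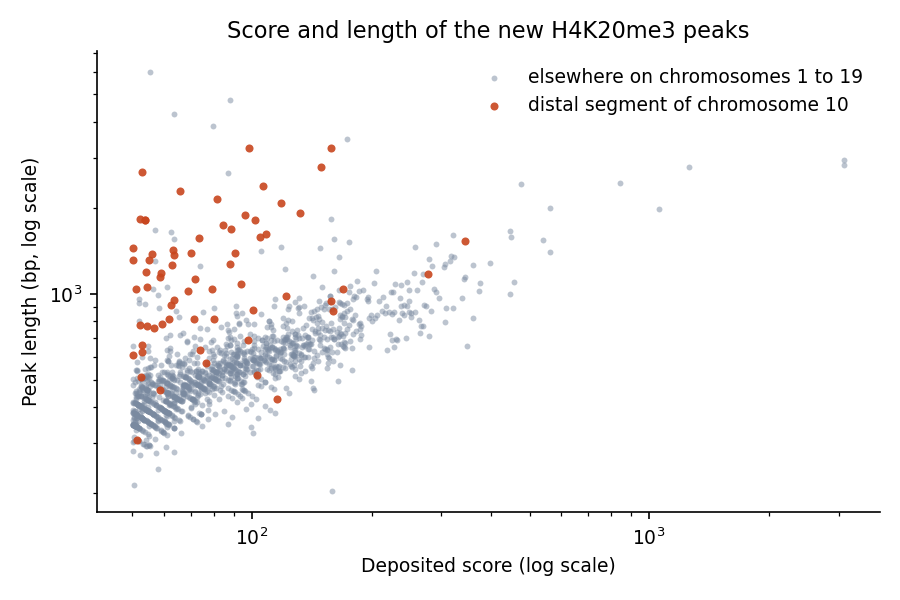
Length in bp against deposited score of the 1384 new H4K20me3 peaks, both on log scales, with 1 point per peak. The 65 peaks between 110 and 130 Mb of chromosome 10 are in red and all others in grey. Most red points lie above the grey band, with a median length of 1173 bp beside 530 bp.

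Counted in windows of 1 Mb, new peaks fell in 811 of the 1746 windows with a KO H4K20me3 peak, and 507 of these held 1. The window with most, 126 to 127 Mb of chromosome 10, held 12 new peaks among 28 KO peaks, beside 18 WT H4K20me3 peaks. Next, with 9 new peaks each, came 145 to 146 Mb of chromosome 4, 127 to 128 Mb of chromosome 10 and 102 to 103 Mb of chromosome 15. They held 16, 34 and 26 KO peaks in that order. Of the 9 on chromosome 4, 8 lay on WT H3K9me3, and of those on chromosomes 10 and 15 none did. The window from 47 to 48 Mb of chromosome 6 held 7 new peaks among 14 KO peaks, including the group described first. Windows on chromosomes 7 and 10 also held 7.

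The share of KO H4K20me3 peaks that were new differed between chromosomes. It was highest on chromosome 18, at 105 of 247 (42.5%, interval 36.3 to 48.9%), followed by chromosome 7 at 119 of 435 (27.4%, 23.2 to 31.8%) and chromosome 14 at 63 of 291 (21.6%, 17.1 to 26.8%). The lowest shares were 32 of 447 on chromosome 3 (7.16%, 4.95 to 9.96%) and 28 of 323 on chromosome 19 (8.67%, 5.84 to 12.3%). The median over the 19 chromosomes was 15.3%, and without chromosome 18 the share of all KO peaks that were new was 15.2%. With a score of at least 100 in the KO list, chromosome 18 still had the highest share (28.9%) and chromosome 3 the lowest (1.98%).

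The 105 new peaks of chromosome 18 had a median score of 104, near the 105 of the 63 on chromosome 14 and above the medians of the other chromosomes, which ran from 62.8 on chromosome 3 to 95.9 on chromosome 2. Of the 105, 30 scored at least 200 (28.6%), beside 60 of 1279 (4.69%) on all other chromosomes pooled. The other KO peaks of chromosome 18 scored high too. Their median of 353 was the highest of any chromosome, beside 242 over all other KO peaks. High scores there are thus not read as particular to new peaks. On chromosome 15 the medians were 348 for other KO peaks and 71.6 for new ones. The 105 new peaks of chromosome 18 were spread over 51 windows of 1 Mb with at most 6 in a window. Of them, 52 (49.5%) were more than 100 kb from a WT H4K20me3 peak, beside 22.1% on the other chromosomes. Just 1 of the 105 touched KO H3K9me3. Chromosome 18 held 170 WT and 247 KO H4K20me3 peaks, and 20 of its WT peaks had no KO peak (11.8%). On chromosome 3, 708 WT and 447 KO peaks were called, and 42.5% of the WT peaks had no KO peak. The number of copies of a chromosome or segment in either culture was not measured here, so for chromosome 18 and the chromosome 10 segment a difference in copy number between the cultures cannot be told apart from one between the genotypes.

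**Figure D5:**
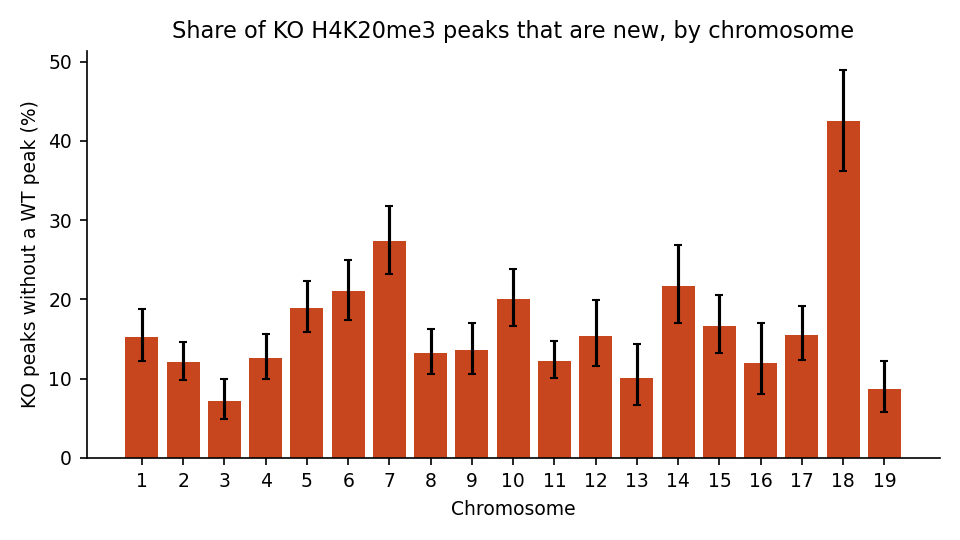
Share of KO H4K20me3 peaks that were new on each of chromosomes 1 to 19. Bars give the percent and error bars the exact 95% binomial interval over peaks. Chromosome 18, at 42.5%, stands above all others, and its interval does not meet that of any other chromosome.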

How the data were processed

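Peak lists of 5 ChIP-seq libraries of MEF were used, and the 3 inputs were not analysed here. The tools were MACS 1.4 for peaks, Bowtie2 2.2.1 and CASAVA 1.82, on build mm9, per the submitters' processing notes. Settings and controls of the histone calls are not given in the sources used. KAP1 was called against a WT MEF library, per the file headers. The deposited value of each peak is the score of the authors' peak caller, read within a list only. Positions are printed counting from 1.

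From these lists, overlaps of at least 1 bp, distances and clusters were computed in Python 3.11.15 (pandas 2.3.3, numpy 2.4.6). Overlap calls were checked against bedtools 2.31.1, with 0 differences, and the counting was tested on simulated data. Intervals are exact Clopper-Pearson 95% intervals from scipy 1.17.1, and figures were drawn with matplotlib 3.10.9. With 1 library per group, no test between genotypes was made. The members, lists and segments were chosen with earlier results of these data known. Named regions are the highest-scoring and longest new peaks, those on each other list, those at the edge of the rule, the largest clusters and the windows with most new peaks. The reference tables were of another build, so the planned comparison with genes was not run. The alternatives were other overlap rules, score minima, list sizes, gaps and sets of chromosomes.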

Additional observations from a re-analysis of the deposited data

How the results depend on the processing

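The number of new peaks stayed between 948 and 1990 under other overlap rules, equal list sizes, merging, a score of at least 100 in both lists and other chromosome sets, beside 1384 as reported. With a score of at least 100 in the KO list alone it was 472, since most new peaks score less, and their median length was then 704 bp. Counting a WT peak within 10 kb as shared gave a median score of 83.0. New peaks with a score of at least 100 had a median distance of 38.6 kb to a WT H4K20me3 peak. The share on WT H3K9me3 was 4.84% within 1 kb, 12.4% within 10 kb and 2.54% for scores of at least 100, and on KAP1 it was 1.30% within 10 kb, and 0% both with at least 50% of the peak covered and for scores of at least 100. The share in clusters was 1.23% with a gap of 5 kb, 8.31% with 50 kb, 0% for scores of at least 100 and 0.986% without 110 to 130 Mb of chromosome 10. With a score of at least 100 in the KO list, the share new was 28.9% on chromosome 18 and 1.98% on chromosome 3. In all, 28 of the 44 recomputed values stayed within the counting interval of the reported one or, for counts, within 1.5 times of it. The settings without chromosome 18 or the chromosome 10 segment, and the distance of peaks scoring at least 100, were chosen after seeing the data. No paired analysis was possible because each group had 1 library. Depth is unknown, so a weak WT signal under the threshold cannot be told apart from none.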
